A study of Mus musculus with 4 samples.

Results

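Lrig1, Plet1, Gata6, Prdm1, Barx2 and Cst6 are genes tied to the part of the hair follicle above the bulge and to the sebaceous gland. Their open chromatin was described in hair follicle stem cells of mice bred to lose the transcription factors NFIB and NFIX and of mice that kept them. Open regions were joined from overlapping ATAC-seq peaks of both genotypes and each was given to the protein-coding gene whose body lay closest to the peak summit, up to 100 kb away. This gave the 6 genes 98 of the 70899 regions assigned to any gene, among 79122 regions in all. ATAC-seq marks open DNA by the insertion of sequencing adapters by a transposase.

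The double knockout (dKO) mice, numbers 14 and 16, carried Sox9-CreER together with floxed alleles of both genes (NFIBfl/fl and NFIXfl/fl) and the Cre reporter R26-YFPfl/fl. The wild-type (WT) mice, numbers 13 and 15, carried the same floxed alleles, NFIBfl/fl and NFIXfl/fl, and the reporter R26-YFPfl/fl, but no Cre. All 4 were males at postnatal day 70, in the second telogen, when follicles rest between hair cycles. Cells were sorted from back skin as DAPI-negative, Sca-1-negative, integrin alpha 6-positive and CD34-positive. The dKO cells were also sorted as YFP-positive, so genotype and this gate cannot be told apart. Cre was driven from Sox9, a gene of follicle stem cells and their descendants. Its time of activation is not given in the sources used here, and loss of the floxed exons was not checked here. For 2 mice of each genotype the data hold 1 peak list, so differences between genotypes could not be set against a spread between mice, and none was tested.

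The follicle above the bulge holds several compartments: the isthmus, the junctional zone where the sebaceous duct joins, the sebaceous gland and the infundibulum that opens at the skin surface. Each is kept up largely by its own stem cells in undisturbed skin, while CD34-positive bulge cells feed the hair itself. LRIG1 is a membrane protein that restrains ErbB receptor signalling and marks stem cells of the junctional zone, and PLET1 is a surface protein of the isthmus. GATA6 is a zinc-finger factor of the junctional zone and sebaceous duct, PRDM1 (BLIMP1) is a repressor found in the sebaceous gland and in differentiating epidermis, and BARX2 is a homeobox factor of the follicle. CST6 (cystatin M/E) is a secreted inhibitor of cysteine proteases in the infundibulum and the cornifying layer.

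The starts of Lrig1, Plet1 and Prdm1 were open in both genotypes, with a peak summit of each list close to the start. Only their promoters are shown, because the promoter sequences used here had none for Gata6, Barx2 and Cst6. The dKO and WT summits both lay 209 bases from the start at Lrig1 and 36 bases from it at Plet1. At Prdm1 the summit was 51 bases away in dKO and 2 bases away in WT. Sequences run from 250 bases before to 50 bases after the start, from RefSeq on GRCm38.p6, which is the assembly of mm10. Lrig1 is chr6:94700096-94700395 on the minus strand, Plet1 is chr9:50494275-50494574 on the plus strand and Prdm1 is chr10:44458699-44458998 on the minus strand. Capitals mark the half-site TTGGC of the nuclear factor I family or its reverse complement GCCAA.
Lrig1: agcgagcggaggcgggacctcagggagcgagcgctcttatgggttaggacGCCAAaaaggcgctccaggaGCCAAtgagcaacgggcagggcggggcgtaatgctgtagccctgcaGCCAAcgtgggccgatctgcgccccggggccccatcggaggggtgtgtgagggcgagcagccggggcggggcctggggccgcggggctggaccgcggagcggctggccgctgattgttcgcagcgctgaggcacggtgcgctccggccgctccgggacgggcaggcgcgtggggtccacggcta
Plet1: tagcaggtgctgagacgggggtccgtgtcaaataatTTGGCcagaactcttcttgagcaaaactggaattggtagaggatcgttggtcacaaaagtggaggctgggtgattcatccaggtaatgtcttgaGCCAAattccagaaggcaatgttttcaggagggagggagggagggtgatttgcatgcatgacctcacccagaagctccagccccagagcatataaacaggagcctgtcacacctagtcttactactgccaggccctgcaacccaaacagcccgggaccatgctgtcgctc
Prdm1: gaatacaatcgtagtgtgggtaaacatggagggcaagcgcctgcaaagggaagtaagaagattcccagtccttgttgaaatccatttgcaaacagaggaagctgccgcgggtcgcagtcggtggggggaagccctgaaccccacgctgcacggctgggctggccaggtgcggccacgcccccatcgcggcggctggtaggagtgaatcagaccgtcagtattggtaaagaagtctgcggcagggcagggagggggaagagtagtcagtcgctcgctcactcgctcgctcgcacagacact

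Searched on both strands, the half-site TTGGC occurred 3 times at Lrig1, first at 200, 180 and 134 bases before the start. It occurred 2 times at Plet1, at 214 and 120 bases before the start, and these letters were not in the Prdm1 window. The half-site was present in 46.7% of 32851 promoters of the same length, so its presence is common. The paired form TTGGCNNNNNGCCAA was in 0.0365% of promoters and in none of these 3. The letters TGANTCA, a loose form of the AP-1 motif with any base as N, were present in 7.81% of promoters. They occurred once at Plet1, 144 bases before the start, and once at Prdm1, 48 bases before it. The middle base was T at Plet1 and A at Prdm1, so neither was the strict form with G or C. The SOX motif ACAAT, present in 31.0%, lay 22 bases before the start at Lrig1 and 246 bases before it at Prdm1. The GATA motif GATAA, present in 25.4%, was not found in the 3 windows. The GC content was 73% at Lrig1, 52.3% at Plet1 and 59.7% at Prdm1, against a median of 52.7% over all promoters.

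The dKO list held 63548 peaks and the WT list 68197. Peak height is the pileup, the number of reads or fragments stacked at the summit, and its median was 38 in dKO and 73 in WT. Pileup is therefore also given scaled, divided by its list's median. The lowest local background was 2.73 in dKO and 5.29 in WT. All 9 stem cell markers (such as Cd34, Krt15 and Sox9) had a peak at the gene or within 1 kb in both lists, with summed highest scaled pileups of 38.6 in dKO and 49.5 in WT. For sebocytes 3 of 4 markers had a peak in each list (sums of 4.89 in dKO and 4.56 in WT), and Pparg had none. For suprabasal epidermis this was 3 of 4 (5.21 in dKO and 5.04 in WT), without Flg. For melanocytes it was 3 of 4 (16.7 in dKO and 17.8 in WT), without Tyr, for fibroblasts 3 of 4 (4.05 in dKO and 5.64 in WT), without Lum, and for endothelium 3 of 4 (3.50 in dKO and 4.58 in WT), without Cdh5. For immune cells it was 1 of 4 in each list, but not the same gene: Ptprc in dKO (0.816) and Cd74 in WT (0.329). Neither list had a peak at Cd3e or Lyz2 or within 1 kb. Ly6a, which encodes the Sca-1 gated against in the sort, had no peak at the gene or within 1 kb in either list. Its 1 region, farther away, was WT-only. An open site is not expression, and the part of other cells in the results was not tested.

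Most regions of the 6 genes were open in both genotypes, as were most regions of all genes. The 6 genes held different numbers of regions seen in a single list. Of the 98 regions, 64 were shared, 18 had a peak only in the dKO list and 16 only in the WT list. The shared share was 65.3%, near the 66.0% of all regions assigned to genes. The dKO-only share was 18.4% (95% Wilson interval 11.9 to 27.2), against 12.8% of all regions assigned to genes. The WT-only share was 16.3% (10.3 to 24.9), against 21.2% of all. The intervals reflect counting error alone, with each region taken as independent. In bulk cells, fewer cells with an open site and less opening per cell cannot be told apart. Barx2, with 30 of the 98 regions, held 9 of the dKO-only ones, and Prdm1, with 16 regions, held 4. Lrig1, with 33 regions, held 8 of the 16 WT-only ones, a share of 24.2% that is near the 21.2% of all. Whether the genes differ in these shares was not tested. Plet1, Gata6 and Cst6 had no dKO-only region.

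**Figure D1:**
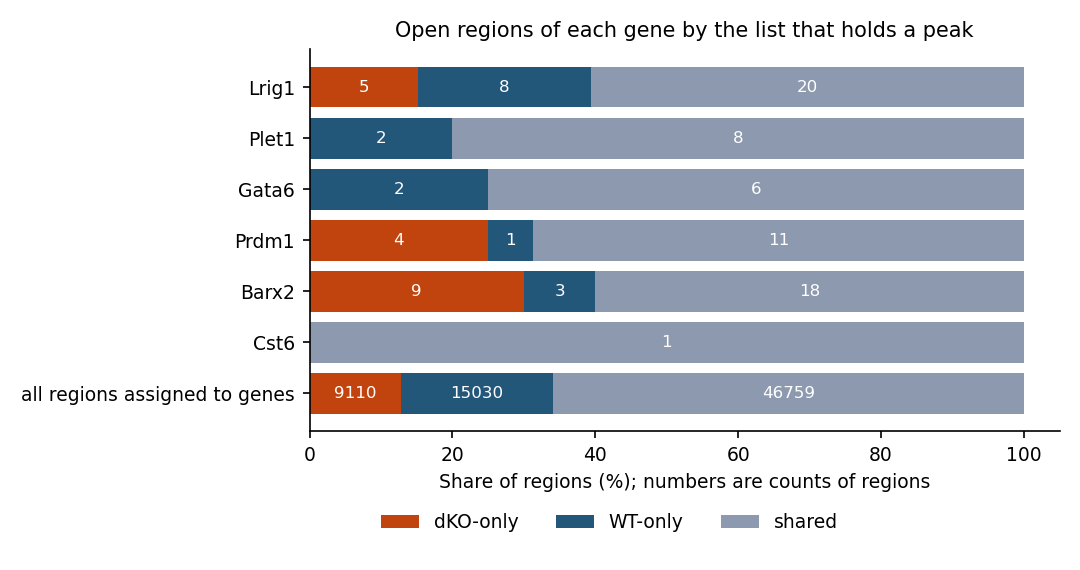
Share of each gene's regions (x axis, percent) that had a peak only in dKO, only in WT or in both lists, with the counts printed on the bars and all 70899 assigned regions at the bottom. Barx2 had 9 dKO-only and 3 WT-only regions, and Plet1 and Gata6 had 0 dKO-only and 2 WT-only regions each.

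The single-list regions had median pileups below those of their whole lists. The 18 dKO-only regions had a median pileup of 28 and a median deposited fold enrichment over background of 3.07, against 18 and 4.08 for all dKO-only regions. The 16 WT-only regions had a median pileup of 32 and a fold of 3.12, against 34 and 4.07 for all WT-only regions. All 18 dKO-only regions would have passed in the WT list at the same scaled level, with the WT local background taken as 1.94 times that of dKO, the ratio of the lowest backgrounds. Because the WT list was deeper (median pileup of 73 against 38 in dKO), this outcome was fixed in advance and is no support for the dKO-only calls. Of the 16 WT-only regions, 12 would have passed in the dKO list at the same scaled level. The rest, 3 of Lrig1 and 1 of Plet1, were too weak to be called there at that level.

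Among the 64 shared regions the median log2 ratio of scaled pileup, dKO over WT, was −0.12, and the median of all 46759 shared regions was −0.15. Of the 64, 11 were higher in dKO by 1.5-fold or more, against 6544 of all 46759 shared regions (14%). A further 8 of the 64 were lower by 1.5-fold or more, against 9957 of all 46759 (21.3%). The genes differed in their medians, at 0.16 for Barx2, 0.08 for Prdm1, −0.18 for Lrig1, −0.19 for Gata6, −0.25 for Cst6 and −0.53 for Plet1. Neighbours in this order overlapped in the range of their regions.

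**Figure D2:**
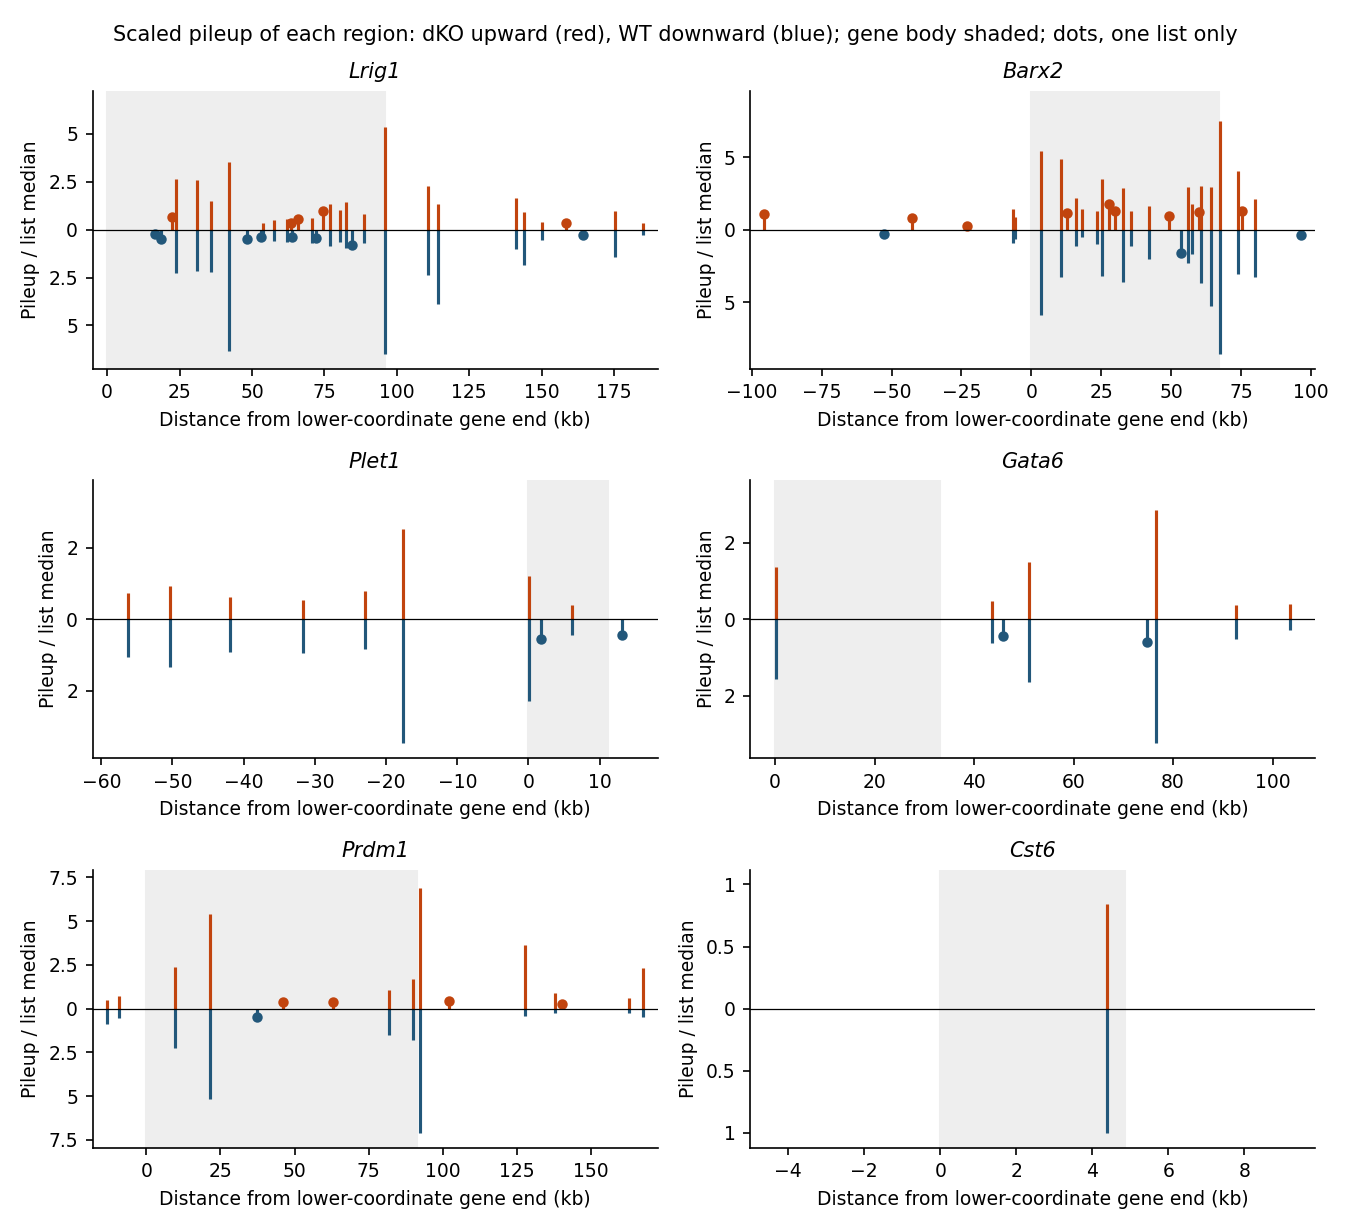
Scaled pileup (y axis, pileup over the list median) of every region against its distance in kb from the lower-coordinate end of the gene, with dKO upward in red, WT downward in blue, the gene body shaded and dots on regions of a single list. The regions above the Prdm1 body include 1 with a scaled pileup of 3.66 in dKO and 0.411 in WT, while the site at the upper gene end reached 6.87 in dKO and 7.10 in WT.

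Lrig1 (gene ID 16206, chr6:94604529-94700298, minus strand) had the most regions of the 6 genes, 33, of which 5 were dKO-only (15.2%), 8 WT-only (24.2%) and 20 shared. Its body overlaps Slc25a26. The region at the gene start (chr6:94698840-94701123), the strongest of the gene, had a pileup of 203 in dKO and 474 in WT. On the scaled log2 ratio this was −0.28, a value that 40.0% of all shared regions met or lay below. The start of Lrig1 thus differed little from the middle of the data.

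Of the Lrig1 sites past 1.5-fold, 2 of the 3 lower ones lay upstream of the start and 2 of the 3 higher ones inside the gene. The region at chr6:94717578-94719136, 18.3 kb beyond the gene end on the upstream side, had a pileup of 50 in dKO and 285 in WT, which is 2.97-fold lower in dKO (95% exact counting interval 2.19 to 4.09). By scaled pileup 2.72% of all shared regions had a ratio as low, but by fold enrichment the log2 ratio was −0.19, not past 1.5-fold. The region at chr6:94748212-94748894, 48.1 kb beyond the end, had 35 in dKO and 135 in WT, 2.01-fold lower in dKO (1.38 to 3.00), and −1.26 in log2 fold enrichment. Inside the gene, chr6:94645858-94647771 had 134 in dKO and 461 in WT, 1.79-fold lower (1.47 to 2.19), but −0.02 in log2 fold enrichment. Of these 3 regions, the one at 48.1 kb was lower by 1.5-fold in both measures.

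Between the 2 lower upstream sites lay 1 that was higher. The region at chr6:94744829-94746591, 45.3 kb upstream of the gene end, had 62 in dKO and 72 in WT, 1.65-fold higher in dKO after scaling (1.16 to 2.36). The other 2 higher regions were inside the gene, with 40 in dKO and 48 in WT at chr6:94684836-94685619 (1.60-fold, 1.03 to 2.49) and 51 in dKO and 62 in WT at chr6:94680814-94681863 (1.58-fold, 1.07 to 2.33). All 3 had fewer reads in dKO than in WT before scaling, and none was past 1.5-fold by fold enrichment, with log2 ratios of 0.48, 0.44 and 0.34. The median log2 ratio was 0.03 over the 12 shared regions inside the gene and −0.40 over the 8 upstream ones.

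Single-list sites of Lrig1 sat mainly within the gene body, 4 of 5 dKO-only and 7 of 8 WT-only. So did 12 of the 20 shared regions and 23 of all 33 regions of the gene. The strongest dKO-only site (chr6:94678751-94679216) had a pileup of 37, and the strongest WT-only site (chr6:94688888-94689397) had 57. A dKO-only and a WT-only site lay 15 bp apart at chr6:94667951-94668315 and chr6:94668330-94668825, with 14 in dKO and 28 in WT. This pair was noticed after its values were seen. The net count of Lrig1, WT-only minus dKO-only regions, was 3, and it was −1 with lists of equal length, 0 with the WT list thinned to the dKO background and 7 with q values up to 1e-05.

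Plet1 (gene ID 76509, chr9:50494525-50505639, plus strand) had a scaled pileup below that of WT at all 8 shared regions, though not by every measure. It had 10 regions, 0 dKO-only, 2 WT-only and 8 shared, and the 8 log2 ratios ran from −0.93 to −0.06. Of all 46759 shared regions 28536 were below 0 too, and 7 of the 8 lay below the median of all. By deposited fold enrichment 3 of the 8 were above 0: the strongest region (0.19), the one at 23.0 kb upstream (0.07), which is also above 0 when scaled to shared regions, and the one inside the gene (0.48). Their median of −0.53 is a scaled level in dKO that was 0.693 of that in WT. Of 2548 genes with at least 8 regions, 13% had a median as low or lower. The dKO-only share of 0% has an interval up to 27.8%, which includes the 12.8% of all regions.

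The start of Plet1 (chr9:50494043-50495456) had a pileup of 46 in dKO and 168 in WT, which is 1.90-fold lower in dKO (1.36 to 2.70). It also overlaps the antisense gene Plet1os. The strongest region (chr9:50476324-50477724), 17.6 kb upstream and overlapping the noncoding RNA gene Gm32462, had 96 in dKO and 254 in WT, 1.38-fold lower (1.08 to 1.76). The second region past 1.5-fold (chr9:50462479-50463560), 31.6 kb upstream, had 20 in dKO and 69 in WT, 1.80-fold lower (1.08 to 3.12). By fold enrichment the log2 ratio was −0.21 at the start, no longer past 1.5-fold, and −0.98 at the site 31.6 kb upstream.

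The other 3 regions farther upstream, between 41.9 and 56.2 kb, had ratios close to each other at −0.54, −0.54 and −0.52. Their pileups were 24, 35 and 28 in dKO, and 67, 98 and 77 in WT. The remaining shared regions had 30 in dKO and 60 in WT at 23.0 kb upstream (−0.06), and 15 in dKO and 33 in WT inside the gene (−0.20). The WT-only regions were chr9:50495950-50496459 next to the start, with a pileup of 41 in WT, and chr9:50507110-50507914 beyond the far end, with 32 in WT.

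**Figure D3:**
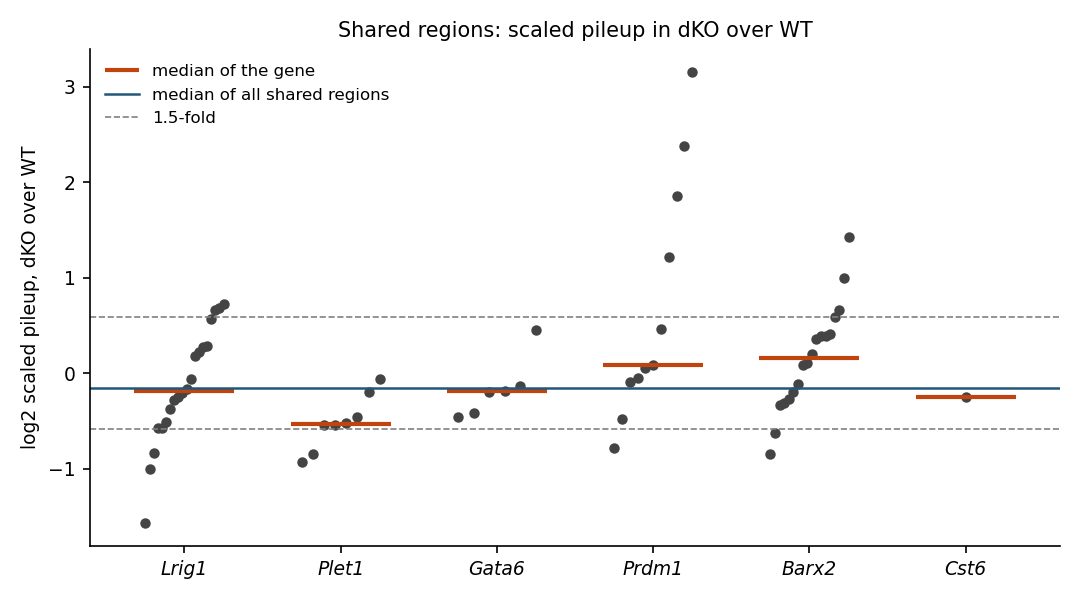
Log2 ratio of scaled pileup, dKO over WT (y axis), of every shared region by gene, with the gene's median in red, the median of all shared regions (−0.15) in blue and 1.5-fold as dashed lines. All 8 Plet1 points lie below 0, 7 of them below the median of all shared regions, and 4 Prdm1 points lie above 1, the highest at 3.15.

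Gata6 (gene ID 14465, chr18:11052510-11085636) showed no shared region past 1.5-fold in either direction. It had 8 regions, 0 dKO-only, 2 WT-only and 6 shared, and all but 1 lay beyond its upper-coordinate end. The region at the lower-coordinate gene end (chr18:11052469-11055197) had 52 in dKO and 114 in WT, a log2 ratio of −0.19. The strongest (chr18:11128623-11129634), 43.4 kb beyond the other end, had 108 in dKO and 237 in WT, also −0.19. Both lay near the median of all shared regions.

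The other shared Gata6 regions had 57 in dKO and 120 in WT (−0.13), 18 in dKO and 46 in WT (−0.41), 14 in dKO and 37 in WT (−0.46), and 15 in dKO and 21 in WT (0.46). The last was the only one above 0, at low counts (1.37-fold, interval 0.658 to 2.79). The stronger WT-only region (chr18:11127094-11127310) had a pileup of 44 in WT and lay close to the strongest shared site, and the other had 32 in WT. The 0% dKO-only share of 8 regions has an interval up to 32.4%.

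Prdm1 (gene ID 12142, chr10:44437174-44528558, minus strand) was open alike in both genotypes at its start, and far more open in dKO at a set of distant upstream sites. It had 16 regions, 4 dKO-only (25%, Wilson interval 10.2 to 49.5), 1 WT-only and 11 shared. The start region (chr10:44456564-44459671) had 205 in dKO and 378 in WT, a log2 ratio of 0.06. The strongest region (chr10:44528585-44530176), at the upper end of the annotated gene, had 261 in dKO and 518 in WT, −0.05. The 4 shared regions inside the gene had a median of −0.02.

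Farther upstream, the region at chr10:44564647-44566334 had a pileup of 139 in dKO and 30 in WT. Scaled to each list it was 8.90-fold higher in dKO (95% exact counting interval 5.96 to 13.7), and 23 of the 46759 shared regions, itself included, had a ratio as high. It lies 36.5 kb beyond the gene end and 106 kb before the start used for the promoter. Its deposited −log10 q was 96.7 in dKO and 11.8 in WT. By deposited −log10 p it ranked above 88.2% of peaks in dKO and above 24.2% in WT.

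The next shared sites outward were higher in dKO too. The region at chr10:44604293-44605159, 76.2 kb beyond the end, had 89 in dKO and 33 in WT, 5.18-fold higher in dKO (3.44 to 7.98). The region at chr10:44574450-44575170, 46.4 kb beyond the end, had 34 in dKO and 18 in WT, 3.63-fold higher (1.99 to 6.82). A weaker region at chr10:44599976-44600297 had 23 in dKO and 19 in WT, 2.33-fold higher (1.21 to 4.52), and was picked out after its values were seen. This last site and the one at 76.2 kb overlap the noncoding RNA gene Gm35154.

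All 4 of these distal Prdm1 sites had more reads in dKO than in WT before any scaling, although the dKO list was the shallower. The 3 largest stayed past 1.5-fold when the deposited fold enrichment, which divides by local background, replaced the scaled pileup. Their log2 ratios were then 1.24, 1.15 and 1.5 for the sites at 36.5, 76.2 and 46.4 kb. The weaker one did not stay past it, at 0.14. Each was called in both lists, and in WT their pileups of 18 to 33 were below the list median of 73.

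Opposite and small sites completed the gene. The region at chr10:44423302-44424297, 13.1 kb beyond the other gene end, had 19 in dKO and 63 in WT, 1.73-fold lower in dKO (1.02 to 3.05). The remaining shared regions had log2 ratios between −0.48 and 0.46. The dKO-only regions had pileups of 10 to 16, the strongest at chr10:44539104-44539608, and the WT-only region at chr10:44474279-44474684 had 34 in WT. No region lay between 76.2 and 169.5 kb beyond the upstream gene end.

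Beyond the 100 kb limit, and so not counted for the gene, the stretch upstream of Prdm1 was mixed. This was looked at after the values above were known. At chr10:44785921-44786805, 257.9 kb beyond the gene end, there were 216 in dKO and 62 in WT, 6.69-fold higher in dKO. At 251.5 kb there were 37 in dKO and 30 in WT (2.37-fold higher), and at 169.5 kb 26 in dKO and 90 in WT, a log2 ratio of −0.85. The next coding gene on that side, Prep, is 538.7 kb away.

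**Figure D4:**
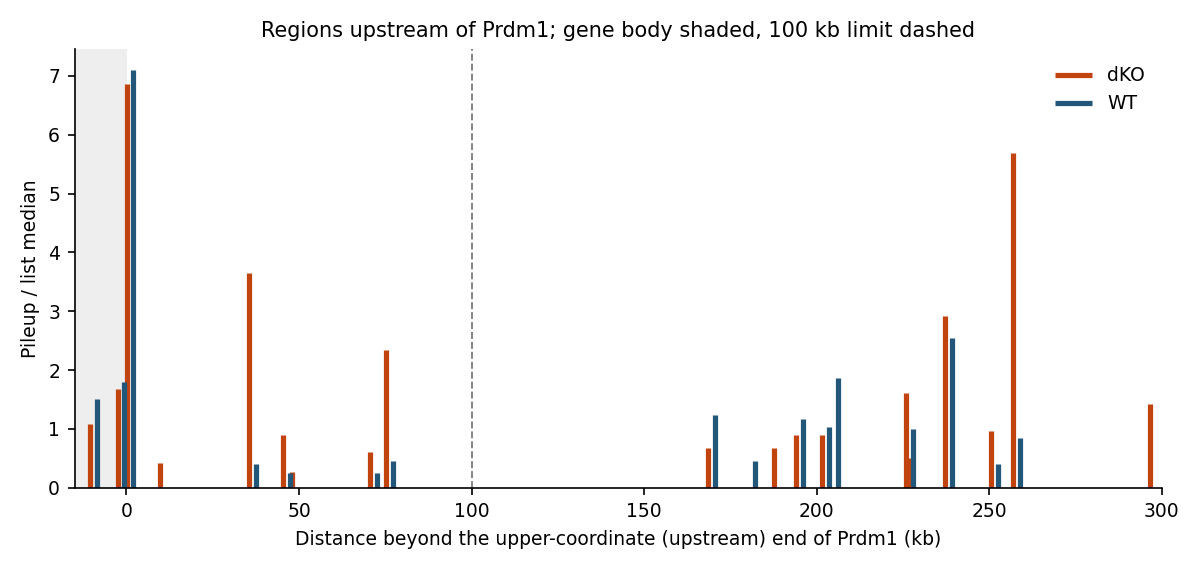
Scaled pileup (y axis) of regions upstream of Prdm1 in dKO (red) and WT (blue) against the distance in kb beyond the upstream end of the gene, with bars set 1 kb to either side of the summit, the gene body shaded and the 100 kb limit dashed. The sites at 36.5, 46.4 and 76.2 kb are higher in dKO, the site at the gene end is 6.87 in dKO and 7.10 in WT, and sites beyond the limit go both ways.

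Barx2 (gene ID 12023, chr9:31846044-31913285) had the most dKO-only regions of the 6 genes. Of its 30 regions 9 were dKO-only, 3 WT-only and 18 shared. The dKO-only share was 30.0% (16.7 to 47.9), against 12.8% of all regions. Inside the gene lay 5 of the 9, and 19 of all 30 regions of Barx2. Of 2548 genes with at least 8 regions, 10.2% had a net share (WT-only minus dKO-only, relative to the gene's regions) as low or lower. The strongest region (chr9:31912724-31915212), at the upper gene end, had 284 in dKO and 626 in WT, a log2 ratio of −0.20.

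The dKO-only sites farthest from background were distal, and are given after their values were seen. The region at chr9:31750239-31750944 had a pileup of 42 and an 11.5-fold enrichment in dKO and no WT peak, where a pileup of 14 would have been enough for a call. Its scaled level was 5.76 times that limit. It lies 95.5 kb below the gene and overlaps the pseudogene Gm8171. The region at chr9:31802685-31803656, 42.7 kb below the gene, had 30 in dKO, 4.12 times its limit in WT. The highest pileup, 67 in dKO, was at chr9:31873764-31874020 inside the gene, with an enrichment of 2.73 and a scaled level 1.87 times its limit. The limits rest on the same estimate of the WT local background.

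At Barx2 4 shared sites had scaled pileups at least 1.5-fold higher in dKO, of which 1 kept this by fold enrichment. The region at chr9:31863928-31864281 had 53 in dKO and 38 in WT, 2.68-fold higher in dKO (1.73 to 4.18), and its log2 fold enrichment ratio was 0.87. The region at chr9:31861874-31862290 had 83 in dKO and 80 in WT, 1.99-fold higher (1.45 to 2.74). Below the gene, chr9:31838962-31839708 had 55 in dKO and 67 in WT, 1.58-fold higher (1.08 to 2.29), and the last past 1.5-fold was inside it with 185 in dKO and 236 in WT (1.51-fold). By fold enrichment these 3 had log2 ratios of 0.45, 0.28 and 0.58, below 1.5-fold.

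Sites near the upper end of Barx2 went both ways. The region at chr9:31909813-31910509 had 111 in dKO and 384 in WT, 1.80-fold lower in dKO (1.45 to 2.24), and −0.28 in log2 fold enrichment. The region at chr9:31925310-31927046, 12.7 kb beyond the end, had 81 in dKO and 240 in WT, 1.54-fold lower (1.19 to 2.01). It was not past 1.5-fold by fold enrichment (−0.27) or when scaled to shared regions (−0.47). Between these, 6.57 kb beyond the end, lay a shared site with 153 in dKO and 221 in WT, 1.33-fold higher (1.08 to 1.64), and at 8.03 kb a dKO-only site with 49, both picked out after their values were seen. The strongest WT-only site, with 120 in WT, lay inside the gene at chr9:31899244-31899660.

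Local background was high across Barx2. At its shared regions it was a median of 6.34 times the list's lowest in dKO and 5.87 times in WT, against 2.03 in dKO and 2.49 in WT over all assigned regions. At its dKO-only regions it was 5.91 times the lowest in dKO, while over all dKO-only regions the median sat at the lowest level itself. Its part in the single-list calls was not tested. At a q value of 1e-05 or less the surplus of dKO-only regions of Barx2 was 2, in place of 6.

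Cst6 (gene ID 73720, chr19:5344705-5349574) had 1 region, a shared site at the upper end of the gene (chr19:5348219-5349638). It had 32 in dKO and 73 in WT, a log2 ratio of −0.25 (1.19-fold lower in dKO, interval 0.774 to 1.86). Cst6 lies 0.424 kb from Catsper1 and 15.1 kb from Banf1, and 15 other regions within 100 kb of it were nearer to another gene, of which 1 was dKO-only, 3 WT-only and 11 shared. By comparison, the nearest genes not overlapping Lrig1 are 320.6 and 417.6 kb away.

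The 100 kb limit left out regions just beyond it. The farthest members were the dKO-only Barx2 site at 95.5 kb and an Lrig1 site at 89.2 kb with 13 in dKO and 22 in WT. The first ones outside were a site 104.3 kb from Lrig1, given to Slc25a26, with 67 in dKO and 151 in WT, and one 104.4 kb from Barx2, given to Arhgap32, with 19 in dKO and 46 in WT.

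Further genes of the same compartments held more WT-only than dKO-only regions, as did all regions assigned to genes (12.8% dKO-only and 21.2% WT-only). In 8 further upper follicle genes 3 of 35 regions were dKO-only (8.57%) and 10 WT-only (28.6%; 22 shared, median log2 ratio −0.09, 3 higher and 4 lower in dKO by 1.5-fold). Lgr6, a receptor gene of isthmus stem cells, had 1 dKO-only and 6 WT-only of 15 regions. Atp6v1c2, a proton pump subunit gene, had 0 and 2 of 7. In 10 sebaceous gland genes, of which Pparg had no region, 3 of 38 regions were dKO-only (7.89%) and 6 WT-only (15.8%; 29 shared, median −0.02, 5 higher and 5 lower). Plin2, a lipid droplet coat protein gene, had 0 dKO-only and 2 WT-only of 5 regions.

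Genes tied to LRIG1, PRDM1 and cystatin M/E, as receptors, relatives, a target gene or enzymes, had shares near those of all regions. Partners of PLET1, GATA6 and BARX2 were not included. In 13 such genes 21 of 151 regions were dKO-only (13.9%) and 29 WT-only (19.2%; 101 shared, median −0.06, 20 higher and 20 lower). Single genes lay on either side. Among receptors of the kind LRIG1 restrains, Egfr had 2 dKO-only and 9 WT-only of 31 regions and Met had 1 and 4 of 21. Erbb4 had 6 dKO-only and 0 WT-only of 11 regions. Of the family members, Lrig2 had 3 dKO-only and 1 WT-only of 11 regions and Lrig3 had 2 and 4 of 21. Myc, a gene that PRDM1 represses, had 0 dKO-only and 6 WT-only of 21 regions. Tgm3, a transglutaminase gene of the cornifying layer downstream of cystatin M/E, had 6 dKO-only and 2 WT-only of 13 regions.

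The genes most like each member were sought by dKO-only share, WT-only share and median log2 ratio, each divided by its SD over genes, among genes with a region number within 25%. For Lrig1 they were Utrn (33 regions, 5 dKO-only, 8 WT-only, median −0.18) and Slc6a6 (31, 5, 8, −0.17), of 247 candidates. Among the nearest to Plet1 was Mtor (10 regions, 0 dKO-only, 2 WT-only, median −0.49), of 1339. Gata6 was nearest to Mark2 and Rab2a, each with 8 regions, 0 dKO-only and 2 WT-only, of 919. Prdm1 was nearest to Eri1 (12 regions, 3 dKO-only, 1 WT-only, median 0.05) and Atp6v1c1 (13, 3, 1, 0.07), of 918. Barx2 was nearest to Plekhm3 (23 regions, 7 dKO-only, 3 WT-only, median 0.12) and Etv6 (29, 9, 3, 0.05), of 292. The closeness covers 2 lists only, at distances from 0.0079 for Utrn to 0.258 for Etv6.

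**Figure D5:**
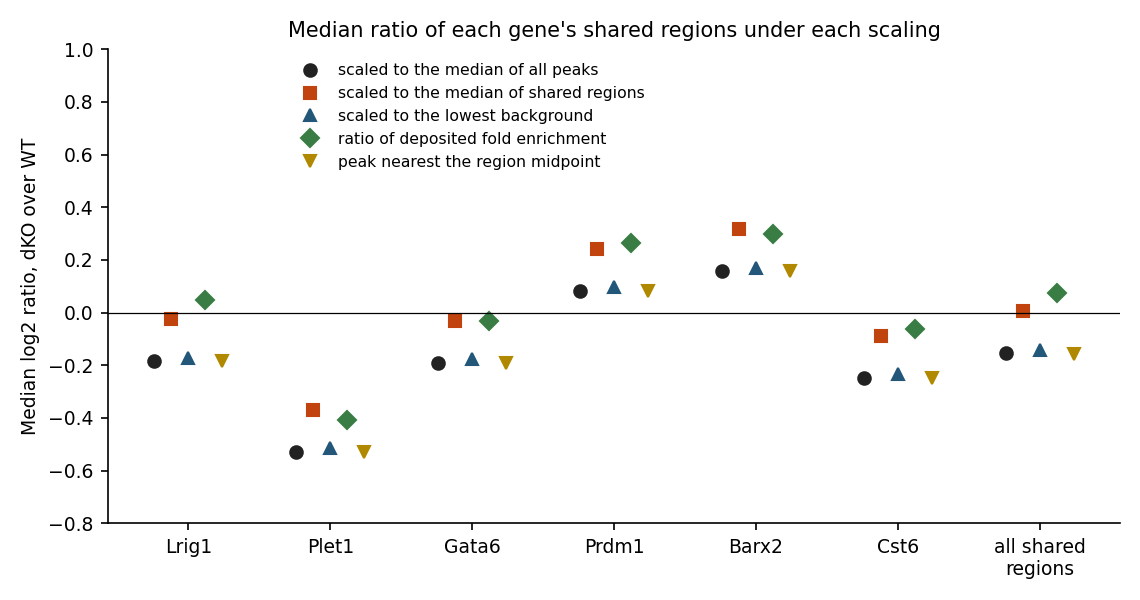
Median log2 ratio of each gene's shared regions, dKO over WT (y axis), under the main scaling to the median of all peaks and 4 alternatives, with all shared regions at the right. Plet1 stays below and Barx2 and Prdm1 stay above the median of all shared regions in each, while Lrig1 is −0.18 in the main scaling and 0.05 by fold enrichment. Scaling to shared regions or to the lowest background shifts all ratios alike, so these sides could not change there.

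The order of the genes was kept by other scalings more than their sign. Scaling to the median of shared regions moved the median of all shared regions to 0.01 on the log2 scale, in place of −0.15, and fold enrichment moved it to 0.07. Plet1 had a median of −0.37 with the first and −0.41 with the second.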

How the data were processed

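ATAC-seq peaks were taken as deposited, 1 list per genotype, with both mice of a genotype assigned to it per the labels. For the combination of mice, transposase shifting and duplicate handling, the method is not given in the sources used here. Bowtie2 2.2.9, Picard and MACS2, and the builds mm10 and GRCm38, are named in the submitters' processing notes with no role or order. The signal deposited by the authors is the summit pileup, unscaled. The deposited fold enrichment is a ratio, pileup over local background with 1 added to each. The −log10 p and −log10 q columns deposited by the authors had damaged header cells and were identified by position: p-values recomputed from pileup and background matched within 0.001 for 99.997% of dKO and 99.98% of WT peaks below a −log10 p of 250. In both lists the lowest −log10 q was 1.30.

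Mitochondrial peaks (3 in dKO, 5 in WT) were left out. Peaks overlapping by at least 1 bp were joined, which bedtools 2.31.1 repeated with a difference of 0, and regions were given to genes by summit, with GRCm38.p6 RefSeq gene bodies. The highest pileup of each list in a region was divided by the list median. Shares carry Wilson intervals and ratios exact binomial intervals, with the scaling taken as fixed, for counting error only. Joining and assignment were checked on simulated data. Python 3.11.15, pandas 2.3.3 and scipy 1.17.1 were used. The alternatives were other overlap, threshold, depth, assignment and scaling choices.

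The 6 genes, the related genes, the markers and the rules were chosen with earlier results of these data known. Regions named were each gene's strongest, its gene-start region, its strongest single-list regions and up to 3 shared regions past 1.5-fold in size of difference, with exceptions stated. Related genes were named at a net count of at least 2. Of the genes most like a member, 1 is not reported here.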

Additional observations from a re-analysis of the deposited data

How the results depend on the processing

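With summits required within 200 bp, the 6 genes had 29 dKO-only regions in place of 18 and 24 WT-only in place of 16. With q values up to 1e-05 they had 10 dKO-only and 16 WT-only. With lists of equal length they had 10 WT-only regions in place of 16, and Lrig1 had a net count (WT-only minus dKO-only) of −1 in place of 3. With every gene within 10 kb, 40 regions were shared in place of 64, and the median log2 ratio of the members was 0.0061 in place of −0.12. That median was 0.039 when scaled to shared regions and 0.10 by deposited fold enrichment, under which all shared regions had 0.005 and 0.07. Lrig1 had 0.047 by fold enrichment in place of −0.18, and Prdm1 had −0.047 with genes within 20 kb, which leaves out the distal sites, in place of 0.08. The cause of the other changes was not tested. Of the 11 higher and 8 lower regions past 1.5-fold, most (12) lost that size by fold enrichment, and 1 did by scaling to shared regions. In all, 180 of the values under alternatives kept their direction and stayed within 1.5-fold for a count, 0.1 for a median log2 ratio, or on their side of 1.5-fold for a region. This does not mean equal size (the Prdm1 site at 36.5 kb had a log2 ratio of 1.24 by fold enrichment in place of 3.15). A further 32 moved, 13 were no longer past 1.5-fold and 6 changed sign. Of the 180, 31 came from scaling to the lowest background. It shifts every log2 ratio by the same small amount, so those could hardly change. Leaving out a mouse could not be done, and no paired analysis was possible because the files hold 1 list per genotype. The lower dKO depth limits the WT-only calls, 4 of which were too weak to be seen in dKO at an equal scaled level.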
